A study of Bos taurus with 16 samples.

Results

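The importin alpha family and its partner were followed through bovine development in vivo, from the mature oocyte to the blastocyst. The genes were taken by name from the deposited read counts: the importin alpha genes KPNA1 to KPNA7 and KPNB1, which encodes importin beta, 8 genes of 27393 loci. All 8 were found. The name KPNA3 belonged to 2 loci. The locus with the higher mean stands for the gene, and the other is described beside it.

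Each sample was a single Bos taurus oocyte or embryo, with 2 samples at each of 8 stages and 16 in all: mature oocytes (MII), 2-cell (2C), 4-cell (4C), 8-cell (8C) and 16-cell (16C) embryos, early morulae (EM), compact morulae (CM) and blastocysts (BL). All had matured or developed in vivo and none carried a treatment, and breed and age are not in the labels. Their RNA was amplified in a pair of rounds before sequencing on the SOLiD platform. Nothing in the labels says that the samples of a stage came from separate cows, so p-values measure only the spread between these samples. The paper places embryonic genome activation (EGA) between 4C and 8C, which puts 6 samples before it (MII, 2C, 4C) and 10 after it (8C to BL). Tests of samples before against after EGA, by limma or by permutation, treated the 16 samples as interchangeable. They made no allowance for the 2 samples of a stage being alike, so their p-values may be too small.

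Proteins with a classical nuclear localisation signal enter the nucleus bound to an importin alpha, which is carried through the nuclear pore by importin beta. Inside, the GTP-bound form of RAN takes the complex apart, and CSE1L returns importin alpha to the cytoplasm. The importin alphas form 3 subfamilies by sequence, KPNA2 with KPNA7, KPNA3 with KPNA4, and KPNA1 with KPNA5 and KPNA6. KPNA7 is known in cattle as a form of oocytes and early embryos, made from maternal transcripts.

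Between 607672 and 3379426 reads per sample were recovered from the deposited values, with a median of 1347534. Levels are given in CPM (reads on a locus per 1000000 reads of the sample), as mean ± SD where groups are averaged. The detection floor was set at 3 reads, equal to 0.888 CPM in the deepest sample and 4.94 CPM in the shallowest. Reads of amplified RNA are not independent molecules, so such floors cover counting error only. Levels are not divided by gene length, so they are compared between stages of a gene and not between genes. Changes were tested with limma, whose input was log2(deposited value + 1), a scale that understates changes of low genes, with p-values adjusted over all loci. The deposited scale sets MII samples higher relative to the other stages than CPM does. Of 10 oocyte markers 9 were read and BMP15 had no read in any sample. Their sum was between 8028 and 10963 CPM in MII oocytes, most of it from H1FOO (8400 ± 1860 CPM, n = 2), and between 26.5 and 39.6 CPM in blastocysts. The 5 trophectoderm markers summed to between 1013 and 1089 CPM in blastocysts, carried by KRT8, KRT18 and GATA3, while CDX2 had no read there and IFNT2 was at 2.20 CPM, below its 43.9 CPM in 16C embryos. Markers of sperm had no read outside 1 of the 16C embryos.

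KPNA7 transcripts were present in oocytes and in embryos up to 4C and nearly disappeared afterwards. MII oocytes had 74.4 and 108 CPM, 2C embryos 95.2 and 80.8 CPM and 4C embryos 61.1 and 43.6 CPM. The 8C embryos had 2.47 and 25.0 CPM, from 2 and 26 reads. No read was found in either 16C embryo or in either blastocyst, 6 reads (3.32 CPM) in 1 of the 2 early morulae, and 2 reads (2.05 CPM) in 1 of the 2 compact morulae. Of its 1025 reads, 989 came from samples before EGA and 36 from samples after it.

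The level of KPNA7 was 77.2 ± 23.1 CPM (n = 6) before EGA and 3.29 ± 7.74 CPM (n = 10) after it, and the highest sample after EGA was below the lowest before it, as was so for 9.7% of all tested loci. At EGA KPNA7 fell by 5.78 on the log2 scale (SE 0.66, adjusted p = 1.5e-07, limma), and levels differed between the 8 stages (adjusted p = 9.3e-06, limma). Against the floor of 3 reads per library, the mean of the 2 MII oocytes was at least 18.5-fold above 16C embryos and at least 20.7-fold above blastocysts. Markers of cumulus cells, which surround the oocyte, moved with EGA too, with some overlap between samples. Of 8 such markers 5 or 6 were read at each of those stages, summing to between 554 and 1966 CPM, and 2 to 4 at each later stage, summing to between 381 and 866 CPM. Most of these reads were on STAR and HAS2, while AMH had none in any sample and TNFAIP6 none before EGA, and their part in the KPNA7 result was not tested. In whole embryos, fewer cells holding a transcript and less of it per cell cannot be told apart.

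The loss of KPNA7 could be placed less firmly between single stages. As neither 16C embryo had a KPNA7 read, the size of the step from 8C to 16C depends on the 1 added before taking logs. From MII to 2C and from 2C to 4C, the log2 differences were -0.92 and -0.63 (adjusted p = 0.706 and 1, limma). From 4C to 8C KPNA7 fell by 2.54 (SE 0.93, adjusted p = 0.0424, limma), and this call held in 8 of 26 alternative analyses (adjusted p from 0.00542 to 0.379). It was lost on leaving out any one sample of MII, 2C, 4C, 16C or BL or the first 8C embryo. Without the first 8C embryo the difference was -1.17 (adjusted p = 0.379, limma) and without the second -3.91 (adjusted p = 0.00542, limma). The step from 8C to 16C was -3.57 (SE 0.93, adjusted p = 0.0747, limma), and was called in 2 of 26 alternatives (adjusted p from 0.00663 to 0.54). These were leaving out the first 8C embryo (-4.95, adjusted p = 0.00663, limma) and DESeq2 (adjusted p = 0.0305), while without the second 8C embryo the difference was -2.20 and not called.

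The 8C embryos differed from each other in more than KPNA7. Their oocyte markers stood apart in the same order, at 108 CPM in the first embryo and 1654 CPM in the second, beside between 3418 and 3869 CPM in 4C and between 49.4 and 193 CPM in 16C embryos. The part of that difference in the KPNA7 steps was not tested.

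**Figure D1:**
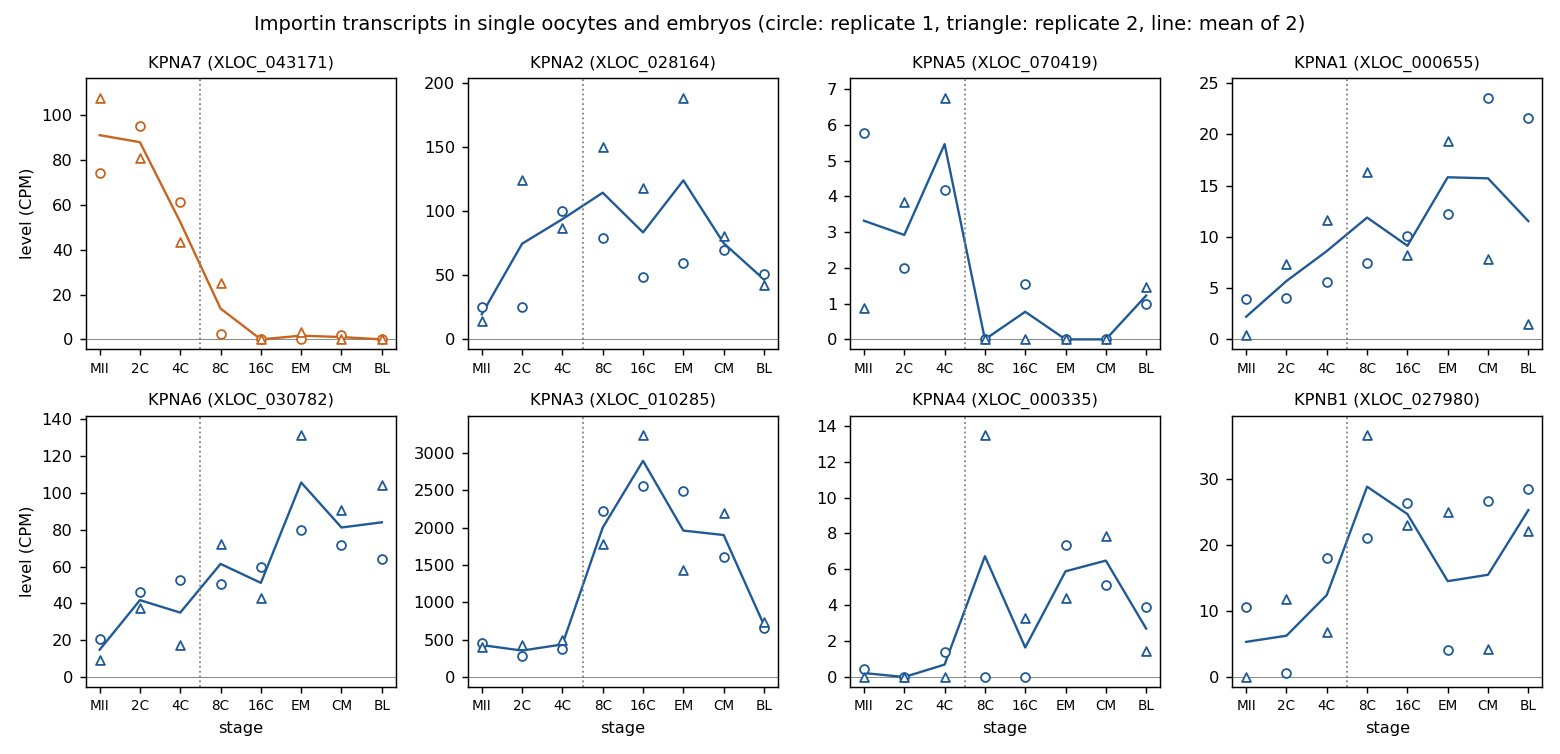
Levels (CPM, linear axes with a thin line at 0) of the 8 genes at 8 stages, with circles for replicate 1, triangles for replicate 2, a line through the mean of 2 and a dotted line at EGA. KPNA7 (orange) lies between 43.6 and 108 CPM in the 6 samples before EGA and at or below 25.0 CPM in the 10 after it, KPNA5 goes from reads in all 6 samples to reads in 3 of 10, and KPNA3 lies higher after EGA.

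KPNA2, whose product is the importin alpha best known from dividing cells, showed no change at EGA that passed the test. MII oocytes had 25.3 and 14.0 CPM, 2C embryos 25.3 and 124 CPM and 4C embryos 101 and 87.3 CPM. After EGA, KPNA2 was at 79.2 and 150.1 CPM in 8C, 48.7 and 118 CPM in 16C and 59.7 and 189 CPM in EM. It was at 69.7 and 80.7 CPM in CM and at 51.1 and 42.6 CPM in BL. Samples before and after EGA overlapped, and replicates of 2C, 8C, 16C and EM lay far apart. Stage means ran from 19.6 ± 7.94 CPM (n = 2) in MII through 94.0 ± 9.50 CPM in 4C and 124 ± 91.3 CPM in EM to 46.8 ± 6.02 CPM in BL.

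The log2 change of KPNA2 at EGA was 0.28 (SE 0.41, adjusted p = 0.555, limma), beside a median of 0.23 over all tested loci, and its sign turned with edgeR (-0.02, adjusted p = 0.972). The 8 stages did not differ past the threshold (adjusted p = 0.268, limma). With the second 2C embryo left out they did (adjusted p = 0.043, limma).

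The proportion of KPNA2 to KPNA7, a pair of one subfamily, was compared within each sample as the log2 ratio of their reads, with 0.5 added to each. KPNA7 had no read in 6 of the 10 samples after EGA, where the ratio is set by the reads on KPNA2, and so by depth, and by the 0.5. The ratio was -1.55 and -2.92 in MII, -1.90 and 0.62 in 2C, and 0.72 and 0.99 in 4C. In 8C it was 4.69 and 2.56, and from 16C to BL it lay between 4.78 and 7.83. The ratio thus was near or below 0 until 4C and above 2 in every later sample, without overlap. With KPNA7 counts under the floor of 3 reads set to 3 and nothing added, an alternative chosen after seeing the data, the ratio after EGA was at least 2.58 in every sample and its mean at least 5.03 above that before EGA (exact permutation p = 1.2e-04). With 0.5 added, the mean went from -0.67 ± 1.66 (n = 6) to 5.95 ± 1.59 (n = 10), a difference of 6.63 that ran from 4.84 to 7.21 over the alternatives (exact two-sided permutation test over 8008 splits, p = 1.2e-04, the smallest it can give, and 5.0e-04 adjusted over the 4 permutation tests run). The test gives no support beyond the fall of KPNA7 itself, which alone separates these samples, while the change of KPNA2 did not pass its test. Because gene lengths were not used, the change of the ratio can be read but not its level.

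**Figure D2:**
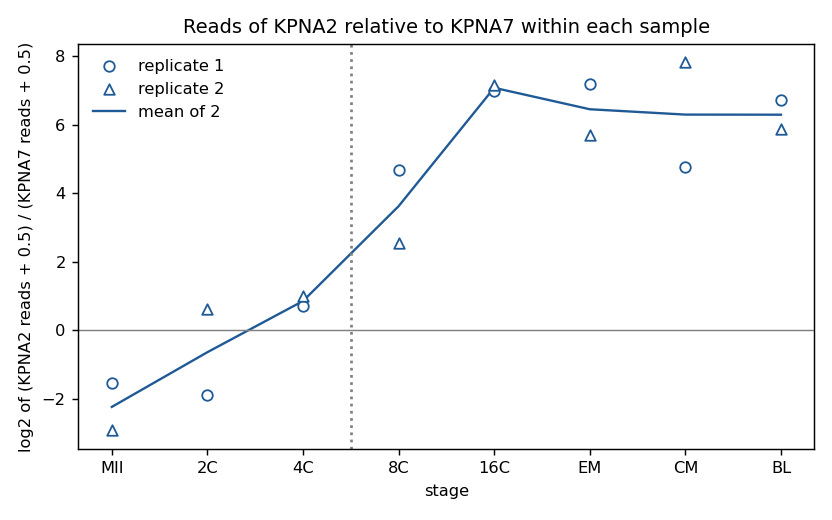
Log2 ratio of reads on KPNA2 to reads on KPNA7 (0.5 added to each) in every oocyte and embryo by stage, with the mean of 2 as a line and EGA as a dotted line. The 6 samples before EGA lie between -2.92 and 0.99 and the 10 after it between 2.56 and 7.83, of which 6 had no KPNA7 read.

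KPNA3, taken by its locus with the higher mean, rose at EGA. MII oocytes had 453 and 402 CPM, 2C embryos 282 and 427 CPM and 4C embryos 378 and 495 CPM. Its levels were 2227 and 1774 CPM in 8C, 2553 and 3234 CPM in 16C and 2488 and 1431 CPM in EM. They were 1606 and 2194 CPM in CM and 658 and 732 CPM in BL. The mean went from 406 ± 73.2 CPM (n = 6) to 1890 ± 815 CPM (n = 10), and in CPM the lowest sample after EGA exceeded the highest before it, as for 18.4% of all tested loci. On the deposited scale both blastocysts, at 680 and 791, lay below both MII oocytes, at 944 and 975, so that the samples before and after EGA overlapped.

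The log2 rise of KPNA3 was 1.60 (SE 0.43, adjusted p = 0.00234, limma) and the stages differed (adjusted p = 0.00141, limma). The step from 4C to 8C alone was a rise of 2.19 (SE 0.55, adjusted p = 0.00706, limma), which was not called without the first 4C embryo (2.00, adjusted p = 0.0625) or with those stages fitted alone (adjusted p = 0.0507). From CM to BL the log2 difference was -1.61 (SE 0.55, adjusted p = 0.123, limma), past the threshold only with DESeq2 (-1.65, adjusted p = 0.027).

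The second locus named KPNA3 (XLOC_010522) held fewer reads. It was at 24.7 ± 8.68 CPM (n = 6) before and 71.3 ± 37.8 CPM (n = 10) after EGA. The 8C embryos had 18.6 and 69.3 CPM, beside 20.1 and 36.3 CPM in 4C, and the highest level was 141 CPM in an early morula. Its log2 rise at EGA was 0.89 (SE 0.35, adjusted p = 0.028, limma), and that call was lost with TMM scaling (adjusted p = 0.0721) and without the first 2C or the first 4C embryo (adjusted p = 0.0607 and 0.0616). The step from 4C to 8C was 0.39 (SE 0.60, adjusted p = 0.632, limma), and the 8 stages did not differ past the threshold (adjusted p = 0.136, limma).

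Reads on the first KPNA3 locus (XLOC_010285) were between 12.2 and 25.6 times those on the second before EGA (median 16.2) and between 10.2 and 120 times after it (median 26.1). The 120 was that of the first 8C embryo, and the second, at 25.6, lay at the upper end of the samples before EGA. That difference between loci was not tested. By locus number the first stands between ARL11 and TRIM13 in one run of genes and the second between RCBTB1 and SPRYD7 in another. In the human genome KPNA3, RCBTB1 and SPRYD7 are known to lie on one strand, and ARL11 and TRIM13 on the other. The second locus thus has the neighbours that share the strand of KPNA3 in human, and the first has those of the other strand. The strand of the loci themselves was not available here. Which of them holds the KPNA3 mRNA therefore cannot be told, and the values of KPNA3 are uncertain to that extent.

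**Figure D3:**
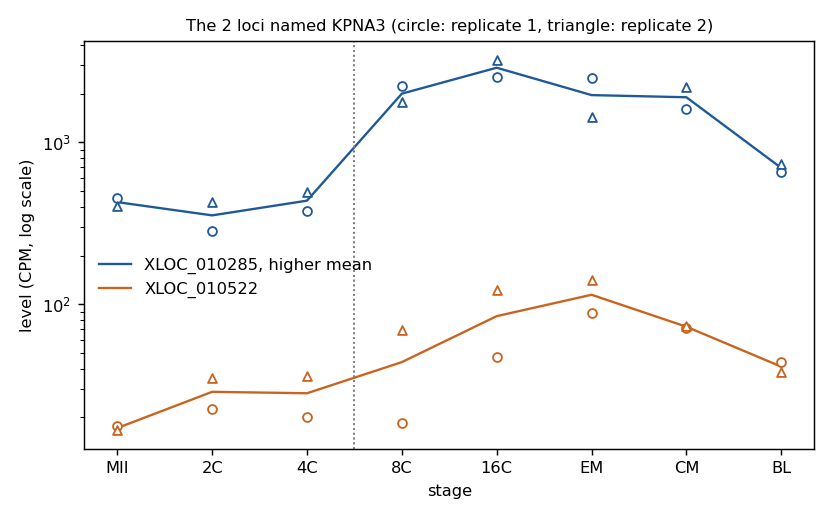
Levels (CPM, log axis) of both loci named KPNA3 in every sample by stage, with circles for replicate 1, triangles for replicate 2, lines through the mean of 2 and a dotted line at EGA. The first locus (blue) goes from 378 and 495 CPM in 4C to 2227 and 1774 CPM in 8C, while the second (orange) has 20.1 and 36.3 CPM in 4C and 18.6 and 69.3 CPM in 8C.

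KPNA4, the close relative of KPNA3, was barely detected. It had 57 reads in all, 3 before EGA and 54 after it. Before EGA it was read in an MII oocyte (0.443 CPM) and a 4C embryo (1.39 CPM). After it, reads were found in 8 of 10 samples, with a median of 4.18 CPM and the highest level, 13.5 CPM, in the second 8C embryo. The filter on low counts kept KPNA4 out of the model for EGA. The difference of log2(CPM + 1) was 1.79 (exact permutation test over 8008 splits, p = 0.00874, 0.0117 adjusted over the 4 tests), with overlapping groups. Across the 8 stages limma gave an adjusted p of 0.181, which became 0.0142 or 0.0307 without the first or the second 8C embryo.

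KPNA5, KPNA1 and KPNA6 make up one subfamily. KPNA5 had 52 reads, 48 of them before EGA. It was at 5.76 and 0.876 CPM in MII, 2.00 and 3.85 CPM in 2C and 4.17 and 6.76 CPM in 4C. Both 8C embryos and all 4 morulae were without a read, and 1 or 2 reads were found in a 16C embryo and in both blastocysts. KPNA5 thus was read in 6 of 6 samples before and 3 of 10 after EGA, with levels of 3.90 ± 2.21 CPM and 0.400 ± 0.659 CPM. Most of these values lie close to the floor of 3 reads. It entered neither model, and its difference of log2(CPM + 1) was -1.78 (exact permutation test over 8008 splits, p = 6.2e-04, 0.00124 adjusted over the 4 tests). Over the 8 stages the permutation test gave p = 0.0234 (100000 resamples, also 0.0234 adjusted).

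KPNA6 was higher in the samples after EGA. Before it, levels were 20.4 and 9.20 CPM in MII, 45.9 and 37.6 CPM in 2C and 52.8 and 17.2 CPM in 4C. After it they lay between 42.8 CPM, in a 16C embryo, and 131 CPM, in an early morula, with a median of 72.0 CPM. The mean went from 30.5 ± 17.4 CPM (n = 6) to 76.7 ± 26.4 CPM (n = 10), and the groups overlapped in their ranges. The log2 rise was 1.00 (SE 0.33, adjusted p = 0.0115, limma), past the threshold in 25 of 26 alternatives and not with edgeR (0.79, adjusted p = 0.0581). The step from 4C to 8C alone was 0.97 (SE 0.62, adjusted p = 0.23, limma) and was not called. The stages did not differ past the threshold (adjusted p = 0.198, limma), save with scaling to total reads (adjusted p = 0.0149).

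KPNA1 was low, with 216 reads and at least 1 in every sample. Its levels lay between 0.438 and 11.7 CPM before EGA and between 1.47 and 23.6 CPM after it, and replicates of BL (21.6 and 1.47 CPM) and CM (23.6 and 7.85 CPM) were far apart. The log2 difference at EGA was 0.80 (SE 0.52, adjusted p = 0.177, limma), and it passed the test only without the second blastocyst (1.05, adjusted p = 0.0461). The family is similar in sequence, and how reads with several matches were treated is not given in the sources used here, so reads may have been split between close relatives such as KPNA5 and KPNA6 or KPNA3 and KPNA4.

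KPNB1, the beta partner, varied widely between replicates. It was at 10.6 and 0 CPM in MII, 0.666 and 11.8 CPM in 2C and 18.1 and 6.76 CPM in 4C. In 8C it was at 21.0 and 36.6 CPM, in 16C at 26.3 and 23.0 CPM and in BL at 28.5 and 22.0 CPM. The morulae had 4.09 and 24.9 CPM in EM and 26.7 and 4.28 CPM in CM. Levels were thus above 20 CPM in 8 of 10 samples after EGA and in none before it, while 1 early and 1 compact morula lay among the earlier samples. The log2 difference at EGA was 1.51 (SE 0.68, adjusted p = 0.0546, limma). It passed with scaling to total reads (1.84, adjusted p = 0.0194) and without the first MII oocyte, the second 2C, the first 4C or the first EM embryo or the second compact morula (adjusted p from 0.0252 to 0.0425), and did not with edgeR (adjusted p = 0.264). Across the 8 stages KPNB1 did not pass (adjusted p = 0.268, limma), save without the first MII oocyte (adjusted p = 0.0356).

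Counted together, 2 of the 7 genes in the model of 8 stages (KPNA3 and KPNA7) differed between stages, beside 66.7% of all tested loci. KPNA3 is counted by its first locus throughout. The second was not called between stages (adjusted p = 0.136, limma) or from 4C to 8C (adjusted p = 0.632, limma), and was called higher at EGA. At EGA 2 of 6 tested genes rose (KPNA3 and KPNA6), beside 36.9% of all loci, and 1 fell (KPNA7), beside 29.9%. Their median log2 change was 0.90 and that of all tested loci 0.23. Between 4C and 8C 1 of 7 rose (KPNA3) and 1 fell (KPNA7), beside 17.7% and 19.1% of all loci. Those shares are 1711 loci higher and 1849 lower with limma, where edgeR called 1656 and 1083 and DESeq2 1630 and 1154. At the other steps no member passed limma's test, where the share of all loci called was 1.42% from MII to 2C, 0.858% from 8C to 16C, 0.103% from 16C to EM and 4.42% from CM to BL. These shares were unstable. In that order limma called 137, 83, 10 and 427 loci, edgeR 44, 0, 0 and 154, and DESeq2 360, 142, 114 and 356. From 2C to 4C and from EM to CM limma called no locus at all, with 441 and 485 loci at an unadjusted p under 0.05, where edgeR called none either and DESeq2 called 1 and 5. At those 6 steps 3 changes of members had an unadjusted p under 0.05, namely KPNA3 from MII to 2C (-1.19, adjusted p = 0.298, limma), KPNA7 from 8C to 16C and KPNA3 from CM to BL. DESeq2 called the last 2 of these and edgeR none.

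Of 27 other genes of nuclear transport 26 were found and 20 could be tested at EGA. Of these 13 rose, beside 36.9% of all tested loci, and 1 fell, beside 29.9%, and their median log2 change was 1.50, beside 0.23 over all loci. By role, 5 of 7 importins of the beta family rose (median 1.81), 4 of 6 exportins (median 1.44) and 4 of 7 genes of the RAN cycle and its adaptors (median 1.16), where the fall was also found, each to be read beside the same 36.9%. Of the 6 genes that the filter kept out of that model, XPO6, an exportin named here after its values were seen, was at 15.8 ± 12.5 CPM (n = 6) before and 2.26 ± 4.50 CPM (n = 10) after EGA, and differed between the 8 stages (adjusted p = 0.00593, limma). It was at 1.10 CPM in MII and at 24.2 and 22.1 CPM in 2C and 4C. From 4C to 8C alone, 9 of the 22 other transport genes in the model of 8 stages rose and 1 fell, beside 17.7% and 19.1% of all loci.

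RAN, the GTPase that gives transport its direction, went from 1308 ± 384 CPM (n = 6) to 17276 ± 5821 CPM (n = 10), a log2 rise of 3.21 (SE 0.44, adjusted p = 2.1e-06, limma). Its nuclear exchange factor RCC1 rose from 7.59 ± 3.79 to 52.1 ± 26.1 CPM (log2 2.21, SE 0.39, adjusted p = 4.1e-05, limma). RANGAP1, which activates its GTPase in the cytoplasm, rose from 4.89 ± 3.32 to 139 ± 67.1 CPM (log2 4.38, SE 0.43, adjusted p = 2.2e-08, limma). In CPM the lowest sample after EGA exceeded the highest before it for RAN, RCC1 and RANGAP1 and also for XPO1, IPO5, XPO5 and IPO7, as for 18.4% of all tested loci, while CSE1L overlapped. The names RAN, RANGAP1 and IPO7 belonged to 2 loci each. The values given are those of the locus with the higher mean, and the other is not described here.

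CSE1L, the exporter that recycles importin alpha, rose less, from 39.0 ± 13.1 to 98.9 ± 36.6 CPM (log2 0.85, SE 0.30, adjusted p = 0.0171, limma), a call lost with edgeR (0.71, adjusted p = 0.0586). XPO1, the exporter of proteins with a leucine-rich signal, rose from 33.6 ± 20.6 to 166 ± 70.7 CPM (log2 2.08, adjusted p = 1.5e-04, limma). Before EGA it was at 8.13 CPM in MII, 48.4 CPM in 2C and 44.1 CPM in 4C. Its step from 4C to 8C was not called (0.76, SE 0.59, adjusted p = 0.325, limma). IPO5, an importin of the beta family, rose from 10.2 ± 2.70 to 34.8 ± 12.9 CPM (log2 1.19, adjusted p = 0.00327, limma), and its step from 4C to 8C was not called either (0.84, adjusted p = 0.273, limma).

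The steepest rises besides RANGAP1 were those of XPO5, the exporter of microRNA precursors, from 25.8 ± 12.9 to 1761 ± 912 CPM (log2 5.53, SE 0.43, adjusted p = 7.0e-10, limma), and IPO7, from 13.5 ± 13.2 to 455 ± 304 CPM (log2 4.77, SE 0.45, adjusted p = 1.3e-08, limma). RANGRF, a RAN-binding protein, was the gene that fell, from 28.0 ± 21.0 to 11.0 ± 8.57 CPM (log2 -1.51, SE 0.63, adjusted p = 0.0381, limma), with overlapping groups. MII oocytes, at 4.87 CPM, lay below that later mean, and the level before EGA came from 2C and 4C, at 36.0 and 43.2 CPM. That call held in 14 of 26 alternatives and was lost, among others, without any one 2C, 4C or 16C embryo, the first 8C or EM embryo or the first blastocyst (adjusted p up to 0.103).

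**Figure D4:**
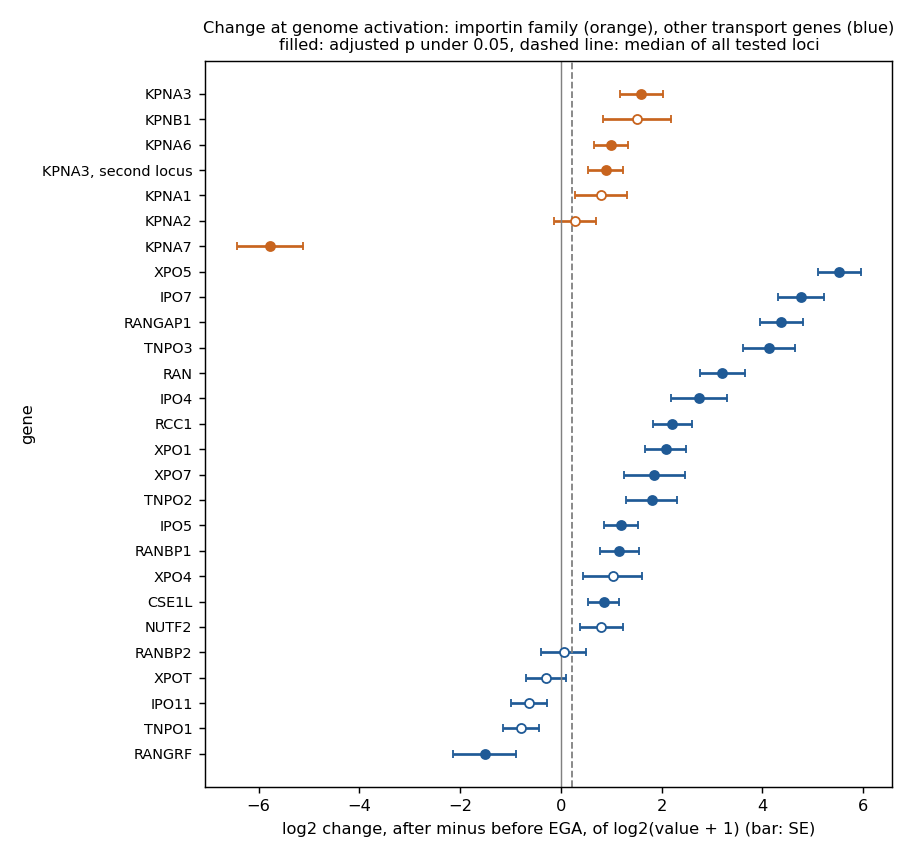
Log2 change after minus before EGA (log2(value + 1) scale, bars give the SE) of the importin family (orange) and the other transport genes (blue) that could be tested, with filled points past an adjusted p of 0.05 (limma) and a dashed line at the median of all tested loci, 0.23. KPNA7 lies at -5.78, the rest of the family between 0.28 and 1.60, and the other transport genes between -1.51 and 5.53.

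Of the 8365 loci with a gene name in the model of 8 stages, those most like KPNA7 over the 16 samples were H1FOO, the oocyte linker histone (Pearson's r = 0.99), ZP2, a protein of the zona pellucida (0.99), ZCCHC3 (0.98), a second locus named H1FOO (0.98) and BCL2L10 (0.98). H1FOO and ZP2 are also among the oocyte markers. For KPNA2 they were CENPQ, a centromere protein (0.89), ELOVL6 (0.86), NVL (0.82), ARL6IP1 (0.82) and DNAJC6 (0.81). For KPNB1 they were ZBTB8OS (0.85), CYTH2, CARM1 and JUND (0.82 each) and TYK2 (0.81). Within the family, r over the same 16 samples was -0.06 between KPNA2 and KPNA7, 0.67 between KPNA5 and KPNA7, 0.56 between KPNA2 and KPNB1 and -0.61 between KPNA3 and KPNA7. These are descriptions, since all genes share the libraries, their scaling and the contrast of samples before and after EGA.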

How the data were processed

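RNA of single oocytes and embryos was sequenced by the authors, whose processing notes name cutadapt, FastQC, TopHat, Cufflinks and HTSeq. Versions, the genome build and the rule for reads with several matches are not given in the sources used here. The deposited signal per locus is a read count divided by a size factor of the sample. All non-zero values (100%) were whole multiples of 1 step within 0.01, so the counts were recovered from the deposited values and all 16 columns were used. CPM was computed from them.

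Because the values are scaled, limma 3.58.1 (R 4.3.3) with a trend was run on log2(value + 1), with Benjamini-Hochberg adjustment at 0.05, over 9670 loci (8 stages) or 6910 loci (EGA) kept by filterByExpr of edgeR. edgeR 4.0.16 and DESeq2 1.42.0 on the recovered counts, other scalings, pseudocounts and filters, a replicate block and each sample left out were alternatives. Permutation tests used Python 3.11.15, numpy 2.4.6 and scipy 1.17.1. The methods were tested on simulated data.

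Members, lists and rules were chosen with earlier results of these data known. All 8 members were named, with 6 transport genes always, the 3 strongest rises and falls at EGA of those called (1 fell), and the 5 named loci most like KPNA7, KPNA2 and KPNB1. Replicates were no copies of one library (chi-square per degree of freedom from 14.8 to 151). Gene names and neighbours were matched to a table of assembly ARS-UCD2.0. It places KPNA6 on another chromosome than the neighbours of its locus, CCDC28B and TMEM39B.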

Additional observations from a re-analysis of the deposited data

Results flagged for a closer look

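KPNA7 was at 25.0 CPM in the second 8C embryo, far above the other 9 samples after EGA, of which the next highest had 3.32 CPM. KPNA4 was at 1.39 CPM in the first 4C embryo, from 2 reads, the highest of the 6 samples before EGA, of which the next had 0.443 CPM. Both samples stood apart from their group by Dixon's criterion, which was applied to 16 groups and flags about 1 in 20 by chance. That rate does not hold for these groups, most of whose values are 0, and the KPNA4 value lies under the floor of 3 reads.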

How the results depend on the processing

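Each stage had 2 samples, and KPNA4 and KPNA5 had 57 and 52 reads in all, most of their values lying at or under the floor of 3 reads. No result changed direction among those past the threshold. The stage effect was called for between 5650 and 6891 loci and 2 to 3 members with 1 sample left out, where a stage left with 1 sample is assumed to vary like the others. At EGA these analyses called between 2400 and 2564 loci, 2 to 3 members and 13 to 14 other transport genes higher, and between 1990 and 2086 loci, 1 member and 0 to 1 other transport gene lower. Summed over the 7 steps, where a locus counts once per step, there were 4217 calls of loci and 2 of members, and these analyses gave 2400 (without the second 4C embryo; 2449 without the first) to 4737 calls of loci and 0 to 3 of members, 0 without the first 4C embryo. With edgeR 1 member rose at EGA. Without a filter 3703 loci and 2 members fell (2069 and 1 with it). Falls of other transport genes (1) numbered 2 with a pseudocount of 5, TMM or DESeq2, 3 with edgeR, and 0 with scaling to total reads or without the 8C samples. With the compared stages alone there were 1297 calls of loci and 0 of members over the steps, and with a pseudocount of 0.5, TMM, total reads or edgeR 1 of a member. The cause was not tested. The median EGA change of all loci was 0.10 with TMM and 0.67 with total reads, and the loci higher and lower were 2383 and 2188, and 2871 and 1593. The ratio of KPNA2 to KPNA7 changed by between 6.18 and 7.0 with 1 sample left out, and by 4.84 to 7.21 over all 21 settings, 1 of them chosen after seeing the data (exact permutation p from 1.2e-04 to 3.3e-04). Replicate numbers come from the titles and name different oocytes and embryos. Deviations of same-numbered samples correlated at between -0.296 and 0.14 over 28 pairs of stages, over 0.1 in 1 of them and under -0.1 in 2. The numbers were therefore not taken to pair the samples, though such correlations cannot exclude a shared origin or batch. With the replicate block 2523 loci rose and 2056 fell at EGA, and no call of a member changed.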
